A study of Mus musculus with 6 samples.

Results

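The interleukin family genes were the rows of the count table whose names begin with Il and a digit, without Il33 and Il1rl1. They came to 54 of 16494 genes and hold the interleukins, their receptor chains and their soluble inhibitors. The table holds 63647 cell barcodes of lower abdominal muscle from male FVB/N mice of 9 to 10 weeks, 3 wild type (WT) and 3 Aromhum. Aromhum mice carry the human aromatase gene CYP19A1 with its own tissue-specific promoters, which turns androgen into estrogen, and develop scrotal hernia. Each sample was the lower abdominal muscle of 1 mouse, and on each of 3 dates a WT mouse and an Aromhum littermate were processed. The tissue was minced and digested with collagenase and dispase at 37 °C, strained to remove multinucleated cells and sequenced by the 10x Genomics 3′ protocol, which counts unique molecular identifiers (UMIs), a tag for each captured transcript. The comparisons below ask in which cells the family was transcribed and which of its genes differed between the genotypes within a cell type.

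Interleukins are secreted proteins by which immune and tissue cells signal to each other. Many act through receptors built from a chain that binds the ligand and a chain shared by several ligands: IL-6 and IL-11 have their own binding chains and signal through the common chain gp130 (Il6st), IL-4 and IL-13 share IL-4Rα (Il4ra) with IL-13Rα1 (Il13ra1), and the receptors of IL-2, IL-7, IL-15 and IL-21 share the common γ chain (Il2rg). IL-1α and IL-1β bind IL-1R1 (Il1r1) with its accessory chain (Il1rap), while the decoy receptor IL-1R2 and the antagonist IL-1Ra (Il1rn) hold that signal back.

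Human CYP19A1 had 770, 797 and 787 UMIs in Aromhum replicates 1 to 3 and 0 UMIs in each WT library. The libraries held 7905 to 13764 barcodes and 64958237 to 111826460 UMIs, and any pair of libraries shared 19 to 48 barcode sequences. Barcodes were clustered without the interleukin family genes, and a name such as endothelial stands for clusters that resemble that type by fixed marker genes. Immune clusters were clustered again on their own. A subcluster that failed the marker rule kept the name of a macrophage/monocyte parent cluster, unless 2 or more of its leading genes marked another type. Of the 2619 macrophage/monocyte barcodes, only subclusters of 1246, 63, 44 and 35 met the rule. In all, 14 types were named, and 7610 barcodes stayed without a name. A level is the UMIs of a gene per 1000000 UMIs (CPM) of that cell type in a mouse, averaged over the mice with at least 10 barcodes of the type. The ranks of cell types leave out the barcodes without a name, and neutrophils and B cells, which reached that number in only 2 mice and 1 mouse. In unnamed clusters with that number in every mouse, the means of Il11, Il11ra1, Il1f10, Il22ra2, Il23a and Il31ra were above that of the highest named type. In neutrophils, mostly from few UMIs, the means of Il1b, Il1rn, Il1r2, Il1a, Il1rap, Il10rb, Il17ra, Il16, Il18rap, Il13ra1, Il23a, Il15 and Il1f9 were also above it, as were those of Il16 and Il12a in the B cells of 1 mouse. Aromhum replicate 3 stood apart from the other Aromhum libraries, with 65 macrophage/monocyte barcodes against 1433 and 738, and 10 Mmp3-high hernia-associated fibroblasts (HAFs) against 691 and 1287, so the calls of family members are also given without it. Rare genes are listed at 0 in whole libraries: each library has 1071 to 1709 such genes, and only 1 to 75 genes with UMIs in 1 to 15 barcodes. Whether such a 0 is a filter on rare genes is not stated in the sources used here, and 11 members had it in at least 1 library, Il2rb, Il12a and Il13ra2 among them. Of the 54 members, 44 passed the filter on low counts in at least 1 cell type, and the other 10 are described by level alone.

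The interleukins themselves were divided between tissue cells and leukocytes. Il6, an acute-phase cytokine, was highest in smooth muscle, at 607 ± 139 CPM (SD, n = 6 mice), above every mouse's endothelial level (258 ± 111 CPM). The endothelial and fibroblast-like levels (238 ± 45.5 CPM) overlapped. By cluster, smooth muscle of WT mice held Il6 at 1520 ± 511 CPM in cluster 20, led by H2-M9, Actg2 and Ifitm1. It was at 444 ± 132 CPM in cluster 18 and at 192 ± 69.2 CPM in the Myh11-led cluster 17. Endothelial cluster 6, led by Ackr1, Selp and Sele, held 700.2 ± 66.5 CPM in WT mice, above the means of clusters 17 and 18. Il11, the gp130 cytokine made by stromal cells, was at 44.2 ± 29.2 CPM in fibroblast-like cells, overlapping smooth muscle at 28.1 ± 22.9 CPM, and at 53.8 ± 30.7 CPM in the unnamed cluster 19, led by Gdf10, Cst3 and Esm1. Il7, which lymphocytes need to survive, was at 144 ± 22.4 CPM in lymphatic endothelial cells and 26.1 ± 13.9 CPM in mesothelial cells, without overlap, and at most at 1.19 ± 1.06 CPM in the other types. Il18, an IL-1 family cytokine, was highest in mesothelial cells (195 ± 26.1 CPM), above dendritic cells (68.4 ± 29.1 CPM) in every mouse. Il34, a ligand of the receptor CSF1R, was highest in smooth muscle (57.0 ± 14.9 CPM) and next in glial cells (26.7 ± 4.26 CPM). Within smooth muscle its WT level was 137 ± 39.1 CPM in cluster 18, led by the pericyte genes Kcnj8, Higd1b and Abcc9. It was 45.4 ± 17.1 CPM in cluster 17 and 49.4 ± 6.33 CPM in cluster 20. Il15 was low throughout, at 13.8 ± 4.30 CPM in myonuclei and 8.06 ± 1.66 CPM in endothelial cells, and these overlapped.

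The IL-1 cytokines were highest in leukocytes. Il1b was at 3103 ± 809 CPM in dendritic cells and 1107 ± 893 CPM in macrophage/monocyte cells, and these overlapped. It was at 14155 and 7175 CPM in the neutrophils of Aromhum replicates 1 and 2, the 2 mice that had 10 or more of them. Il1a was at 259.7 ± 101 CPM in macrophage/monocyte cells and 7.67 ± 7.47 CPM in dendritic cells. The antagonist Il1rn (524 ± 195 CPM) and the anti-inflammatory Il10 (645 ± 506 CPM) were also highest in macrophage/monocyte cells among the ranked types, with Il1rn at 2401 and 1901 CPM in the neutrophils of those 2 mice. In fibroblast-like cells the same 4 genes averaged 0.105 to 0.982 CPM. Il16, a T-cell attractant, was highest in T cells (42.7 ± 29.6 CPM), overlapping mesothelial (26.3 ± 5.20 CPM) and glial cells (25.1 ± 4.14 CPM).

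Receptor chains followed other borders. The shared chain Il6st was high in endothelial (488 ± 194 CPM), glial (371 ± 46.0 CPM) and lymphatic endothelial cells (346 ± 30.2 CPM), and these overlapped. Its partner Il6ra was highest in macrophage/monocyte cells (105 ± 27.2 CPM) and was at 59.0 ± 8.42 CPM in fibroblast-like cells. Among the named types the IL-11 receptor Il11ra1 was highest in fibroblast-like cells at 329 ± 36.2 CPM, against 146 ± 33.1 CPM in mesothelial cells, with no overlap. Its means were higher in the unnamed clusters 19 (424 ± 107 CPM) and 15 (404 ± 64.4 CPM), the latter led by the tendon genes Tnmd, Fmod and Wif1. Il11ra1 has a near-identical mouse copy, so its counts are uncertain. Il1r1 was at 192 ± 90.6 CPM in smooth muscle, 135 ± 58.3 CPM in endothelial cells and 95.1 ± 32.4 CPM in fibroblast-like cells, overlapping, and the accessory chain Il1rap was at 106 ± 15.3 CPM in glial cells and at most 14.1 ± 5.52 CPM in the other ranked types. In the neutrophils of the 2 Aromhum mice Il1rap was at 169 and 184 CPM, from 18 UMIs over all mice. The decoy Il1r2 was at 214 ± 87.7 CPM in dendritic cells and 48.1 ± 42.1 CPM in fibroblast-like cells, and at 3202 and 1226 CPM in the neutrophils of the 2 Aromhum mice.

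Il4ra was spread over endothelial cells (143 ± 32.7 CPM), T cells (139 ± 25.4 CPM) and macrophage/monocyte cells (122 ± 56.7 CPM). Il13ra1 was highest in endothelial cells (54.9 ± 23.4 CPM), overlapping smooth muscle (38.8 ± 8.32 CPM). The decoy Il13ra2 was at 0 CPM in every WT library and at most at 0.439 ± 1.08 CPM. T cells led in Il7r (1311 ± 289.6 CPM), Il2rb (391 ± 245 CPM), Il2ra (274 ± 87.5 CPM), Il2rg (239 ± 90.0 CPM) and Il18r1 (113 ± 48.2 CPM). The Il2rb mean includes WT replicate 3, where the gene was at 0 in the whole library. Of the 309 T cell barcodes, 171 lay in a subcluster led by Gata3, Calca and Tnfrsf4, with 1 T cell marker among its 10 leading genes. Whether these are all T cells was not tested. The IL-18 receptor Il18r1 was also at 75.0 ± 30.1 CPM in mesothelial cells, where its ligand Il18 and the inhibitor Il18bp (27.0 ± 11.6 CPM) were highest. Mesothelial cells also held the highest levels of Il17rd (29.8 ± 9.03 CPM), a modulator of receptor signaling, and Il17re (68.8 ± 24.9 CPM), a receptor of IL-17C.

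Il17ra, the chain common to IL-17 receptors, was at 83.1 ± 23.2 CPM in macrophage/monocyte cells and 72.6 ± 31.5 CPM in muscle stem cells and myoblasts (MuSC/myoblast). In the latter WT replicate 2 was at 135 CPM and the other mice at 53.3 to 73.8 CPM. The larger MuSC/myoblast cluster, of 2873 barcodes, had the sperm genes Prm1, Prm2, Tnp1 and Tnp2 among its leading genes, beside Myod1 and Asb5. The part of such transcripts in the levels of this type was not tested. Il10rb was at 176 ± 9.31 CPM and Il10ra at 69.0 ± 14.6 CPM in macrophage/monocyte cells. Mast cells had higher means of Il10ra (157 ± 109.8 CPM, n = 5 mice), Il17ra (88.5 ± 109.8 CPM) and Il3ra (82.1 ± 104 CPM), but from at most 14 UMIs of a gene in all. Il3ra, a chain of the IL-3 receptor, was next at 45.7 ± 6.81 CPM in fibroblast-like cells and 31.8 ± 7.71 CPM in endothelial cells. Il15ra was highest in fibroblast-like cells (27.3 ± 6.93 CPM) and Il20rb in lymphatic endothelial cells (9.52 ± 4.26 CPM). The 3 highest members were Il6st (214 ± 17.6 CPM), Il17ra and Il11ra1 (52.1 ± 10.9 CPM) in MuSC/myoblast cells, Il11ra1 (63.2 ± 16.1 CPM), Il6 and Il6st in myonuclei, and Il6st, Il6 (107 ± 28.9 CPM) and Il1rap in glial cells. For 15 of the 54 members the highest named cell type did not overlap the next over the mice. The share over all genes was not computed, so this count does not show whether the family is more bound to cell types than other genes. The highest type stayed the same in 51 to 54 members without doublets or at other cluster resolutions, and in 44 each with only barcodes of at most 5% mitochondrial UMIs or inside the study's limits.

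The remaining members were low or held by few cells. Il17d was highest in fibroblast-like cells (41.6 ± 24.6 CPM), as were Il1rl2, a receptor of IL-36 (15.8 ± 4.38 CPM), while Il31ra was at 2.40 ± 0.719 CPM there and at 6.72 ± 7.33 CPM in cluster 19, from 18 UMIs. Il4i1, a secreted amino acid oxidase of antigen-presenting cells, was at 144 ± 59.99 CPM in dendritic cells and 3.13 ± 3.84 CPM in macrophage/monocyte cells, without overlap. Il17rc, the partner of Il17ra, was at 26.3 ± 4.13 CPM in mesothelial and 19.6 ± 5.62 CPM in smooth muscle cells, and Il17b was highest in smooth muscle (15.1 ± 5.38 CPM). T cells had the highest means of Il27ra (31.7 ± 16.3 CPM), Il2 (31.8 ± 54.3 CPM), Il18rap (49.5 ± 46.4 CPM) and Il12rb1 (10.7 ± 9.34 CPM). Il19, Il1f10, Il22ra2, Il1rapl1, Il1f9, Il17rb and Il17f had 20 to 173 UMIs each over all libraries and were at 0 in at least 4 of the 6.

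**Figure D1:**
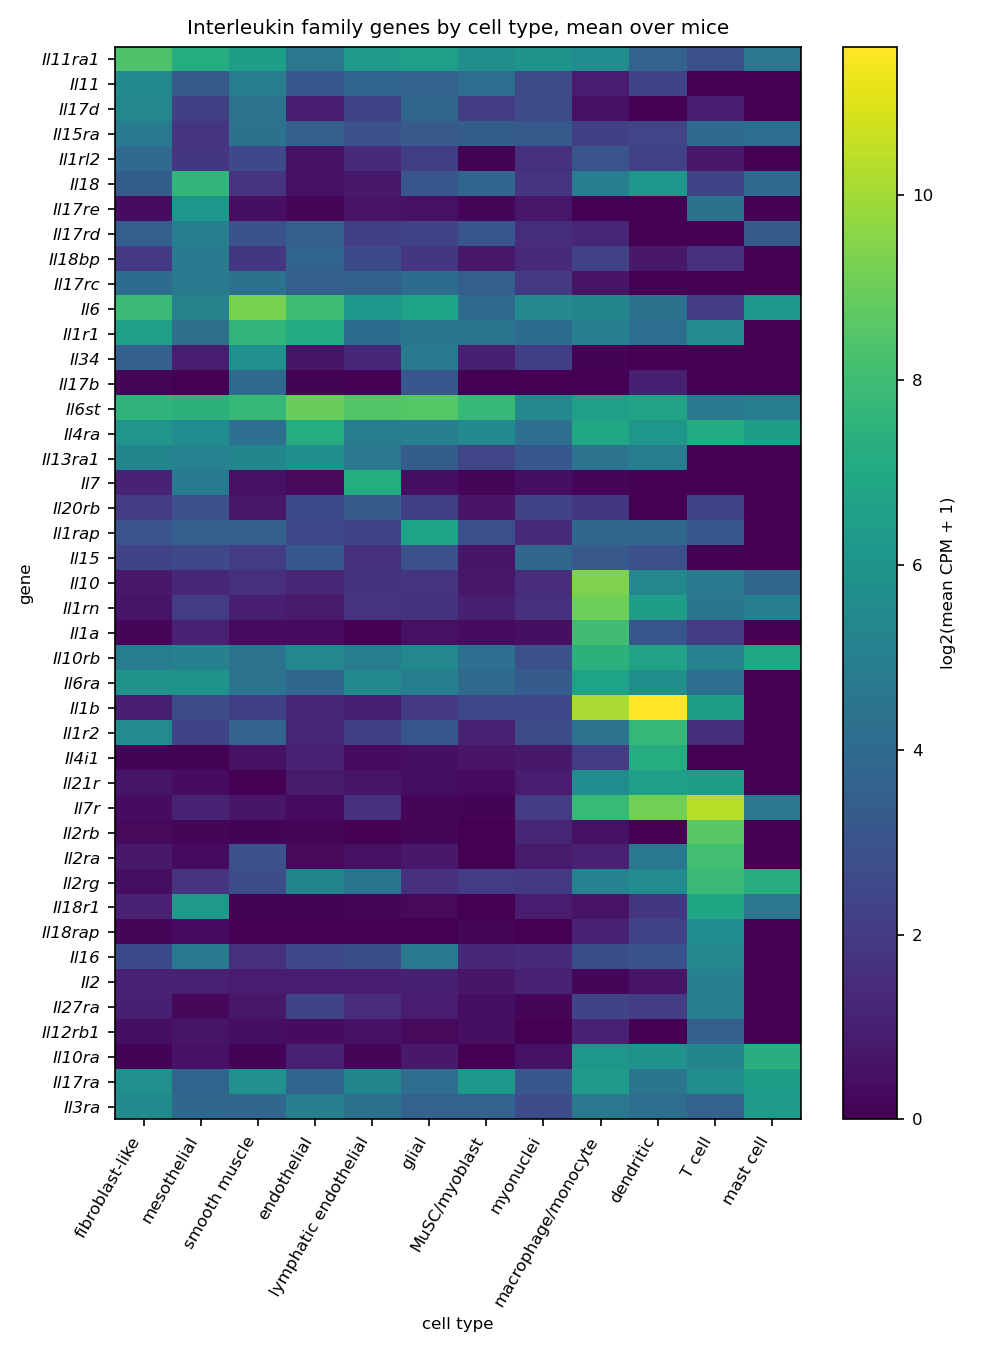
Mean CPM of 43 interleukin family genes (rows; those at 5 CPM or more in any type) in 12 cell types (columns), as log2(mean CPM + 1) on the color scale, each a mean over the mice with at least 10 barcodes of the type. Il11ra1 stands out in fibroblast-like cells, Il18 in mesothelial cells, Il7 in lymphatic endothelial cells, Il1b in dendritic and macrophage/monocyte cells, and Il7r in T cells.

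In the edgeR test between the genotypes, endothelial cells had the most calls in the family. With DESeq2 endothelial cells had 10 of 29 (1720 of all 12092 genes) and fibroblast-like cells 10 of 39 (2877 of all 13935). Without Aromhum replicate 3 endothelial cells had 11 of 32 (1687 of all 12343 genes) and fibroblast-like cells 19 of 43 (3996 of all 14032). Of 29 members tested in endothelial cells, 10 passed the edgeR quasi-likelihood test at a Benjamini-Hochberg adjusted p under 0.05. That test weighs the difference between the genotypes against the spread between mice of the same genotype. Without a block, this spread takes in any difference between the dates. The 6 genes Il6st, Il1r1, Il13ra1, Il4ra, Il3ra and Il1b were higher in Aromhum mice, where 8.29% of all 12092 genes tested were higher, and Il16, Il10rb, Il17rd and Il23a were lower, where 6.04% were. Among all genes tested 14.3% were called. The median log2 fold change was 0.10 over the 29 members and -0.0070 over all genes.

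Il6st, the gp130 chain (chr13:112464070-112510086, + strand, in the GENCODE annotation of mm10), was at 410.2, 251 and 307 CPM in WT replicates 1 to 3 and at 672, 721 and 565 CPM in Aromhum replicates 1 to 3. Every Aromhum mouse was above every WT mouse. The level rose 2.03-fold (log2 fold change 1.02 ± 0.18 SE, adjusted p = 0.00944). Il1r1, the signaling receptor of IL-1 (chr1:40225080-40317257, + strand), was at 112, 68.0 and 73.8 CPM in WT and 198, 192 and 166 CPM in Aromhum mice, again without overlap, a 2.20-fold rise (log2 fold change 1.14 ± 0.19 SE, adjusted p = 0.00738). Il13ra1 (chrX:36112110-36171259, + strand) was at 44.0, 27.6 and 32.5 CPM in WT and 84.5, 72.6 and 68.5 CPM in Aromhum mice, a 2.19-fold rise without overlap (log2 fold change 1.13 ± 0.18 SE, adjusted p = 0.00629). These 3 calls were kept when any of the 6 mice was left out.

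Il4ra, the chain that pairs with Il13ra1 (chr7:125552120-125579474, + strand), was at 134, 101 and 112 CPM in WT and 162, 182 and 169 CPM in Aromhum mice. The rise was 1.48-fold without overlap (log2 fold change 0.57 ± 0.13 SE, adjusted p = 0.021). Il3ra rose from 25.5 ± 2.02 to 38.2 ± 4.88 CPM (SD, n = 3 each; log2 fold change 0.60 ± 0.13 SE, adjusted p = 0.0192). Il1b was at 0.777, 0.176 and 0.391 CPM in WT and 3.82, 2.54 and 0.740 CPM in Aromhum mice, from 3 to 38 UMIs a mouse. Aromhum replicate 3 lay within the WT range, and the fitted rise was log2 fold change 2.41 ± 0.65 SE, adjusted p = 0.0375. The summed level of 12 macrophage/monocyte markers in endothelial cells, none of them at 0, was 28.2 to 52.8 CPM in WT and 51.0 to 199.97 CPM in Aromhum mice, while that of 8 dendritic markers, 3 of them at 0, was 96.0 to 106 CPM in WT and 68.8 to 92.1 CPM in Aromhum mice. Over all barcodes of a library Il1b was at 47.3, 25.0 and 20.0 CPM in WT and 222, 120.3 and 42.1 CPM in Aromhum mice. The part of these markers and of free RNA in the Il1b difference was not tested. The 8 MuSC/myoblast markers summed to 223 to 357 and 769.9 to 925 CPM and the 10 fibroblast-like markers to 362 to 527 and 541 to 995 CPM in endothelial cells. The 8 T cell markers summed to 5.58 to 7.92 and 7.93 to 10.3 CPM, and the 9 myonuclei markers were lower, at 148 to 243 CPM in WT and 70.7 to 101 CPM in Aromhum mice, none at 0. The part of these 4 lists in the 10 calls was not tested either.

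Il16 was the member that fell most in endothelial cells. It was at 6.76, 9.74 and 6.07 CPM in WT and 2.51, 2.40 and 2.37 CPM in Aromhum mice, with all 3 Aromhum mice below the lowest WT mouse, 3.06-fold lower (log2 fold change -1.61 ± 0.23 SE, adjusted p = 0.00555). This call too was kept without any of the 6 mice. Il10rb, a chain of the IL-10 and IL-22 receptors, fell from 51.1 ± 10.8 to 33.4 ± 2.62 CPM (log2 fold change -0.60 ± 0.15 SE, adjusted p = 0.0271). Il17rd fell from 12.2 ± 1.33 to 7.65 ± 1.39 CPM (log2 fold change -0.65 ± 0.17 SE, adjusted p = 0.0336). Il23a, the p19 subunit of IL-23, fell from 5.67 ± 0.772 to 3.46 ± 0.678 CPM (log2 fold change -0.71 ± 0.21 SE, adjusted p = 0.0467). The Il23a call was lost without any 1 of the 6 mice, and Il10rb without WT replicate 2 (adjusted p = 0.0741), Aromhum replicate 1 (0.105) or Aromhum replicate 2 (0.084). Il4ra, Il17rd and Il1b were lost without WT replicate 2 or 3 or Aromhum replicate 1 or 2, and Il3ra without WT replicate 2 or Aromhum replicate 1. Over these losses the adjusted p ranged from 0.0584 to 0.184. Without Aromhum replicate 3, 11 members were called, beside 1687 of all 12343 genes.

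Same-numbered mice deviated together in endothelial cells, and with the replicate number as a block 13 members were called, while the calls over all 12092 genes went from 1732 to 2895. The 3 added were Il6 (log2 fold change 0.77, adjusted p = 0.00108), Il6ra (0.48, adjusted p = 0.0359) and Il17ra (0.60, adjusted p = 0.0209). Without the block, Il6 was at 222, 144 and 199 CPM in WT and 451, 210.2 and 323 CPM in Aromhum mice, with Aromhum replicate 2 inside the WT range (adjusted p = 0.0664). Il17ra was at 10.1 ± 2.27 CPM in WT and 15.2 ± 0.894 CPM in Aromhum mice (adjusted p = 0.0544). With only the barcodes inside the study's limits on genes, UMIs and mitochondrial UMIs, 6 of 22 members were called, all higher, beside 788 of all 10050 genes. They were Il6st, Il1r1, Il13ra1, Il4ra, Il6 and Il17ra.

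**Figure D2:**
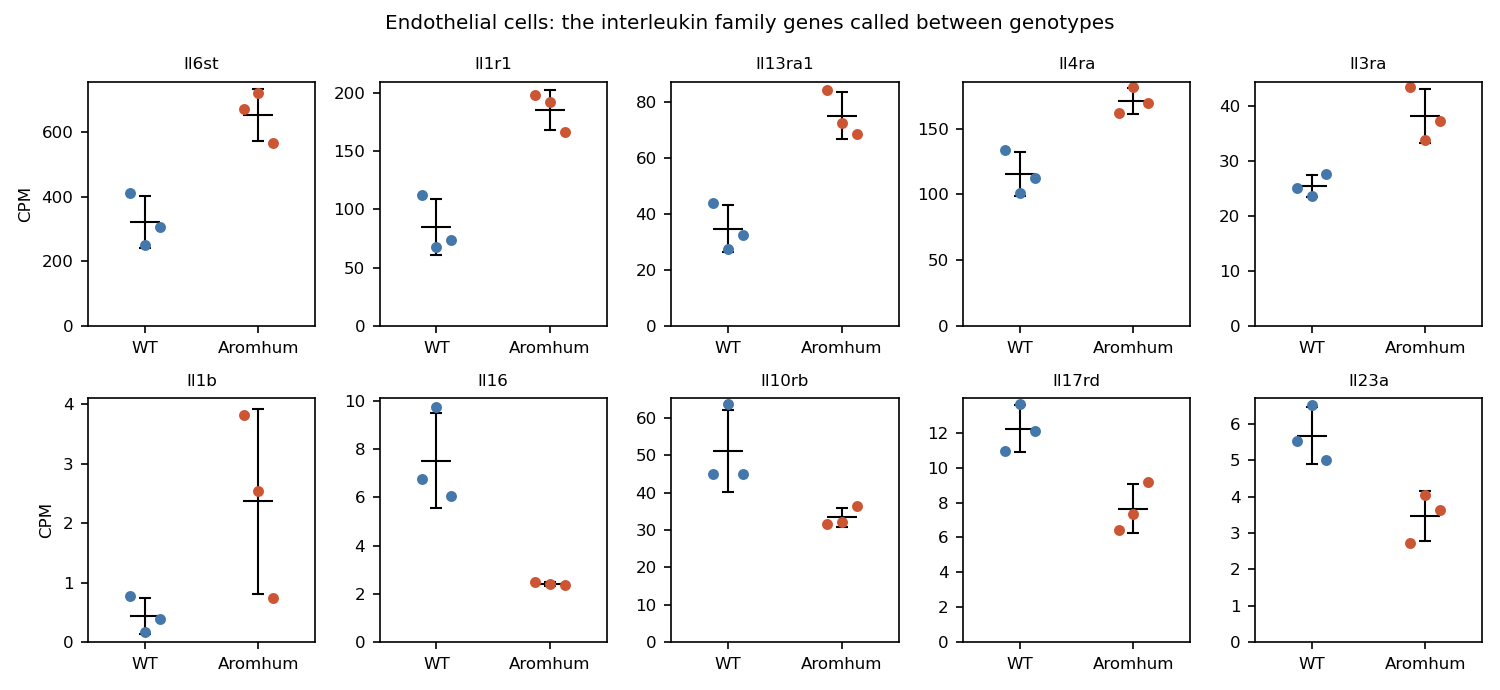
CPM of the 10 interleukin family genes called in endothelial cells, a point for each of 3 WT (blue) and 3 Aromhum mice (red), with the mean and SD as bars. The genes were chosen by the test on these same mice, so groups that lie apart here add no support. In Il1b the lowest Aromhum mouse, at 0.740 CPM, lies just below the highest WT mouse, at 0.777 CPM. The groups are apart in the other panels.

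The promoters of 3 of the receptor genes called higher in endothelial cells, Il6st, Il13ra1 and Il4ra, and of Il6 are shown. The 4 genes were picked by hand, and Il1r1 and Il3ra, also called higher there, are not shown. Whether the 4 are regulated together was not tested. Il6 was not called in the main test. It was called with the block, DESeq2, the study's limits, at most 5% mitochondrial UMIs and without Aromhum replicate 2. They are RefSeq sequences of build GRCm38.p6, from 250 bases before to 50 after the RefSeq start of the gene, and all 4 lie on the + strand. The RefSeq start of Il4ra lies downstream of the GENCODE start given above. Il6st is chr13:112463820-112464119, Il13ra1 is chrX:36111858-36112157, Il4ra is chr7:125552021-125552320 and Il6 is chr5:30012864-30013163. Capitals mark the GC box GGGGCGGGG, the AP-1 motif TGANTCA and the NF-kB motif, whose letters in the Il6 window are GGGATTTTCC, searched on both strands.
Il6st: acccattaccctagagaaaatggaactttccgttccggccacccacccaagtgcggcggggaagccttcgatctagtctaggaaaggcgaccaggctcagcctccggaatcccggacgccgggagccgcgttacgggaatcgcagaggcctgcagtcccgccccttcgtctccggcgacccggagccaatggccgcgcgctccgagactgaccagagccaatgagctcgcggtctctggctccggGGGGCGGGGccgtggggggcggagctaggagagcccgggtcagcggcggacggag
Il13ra1: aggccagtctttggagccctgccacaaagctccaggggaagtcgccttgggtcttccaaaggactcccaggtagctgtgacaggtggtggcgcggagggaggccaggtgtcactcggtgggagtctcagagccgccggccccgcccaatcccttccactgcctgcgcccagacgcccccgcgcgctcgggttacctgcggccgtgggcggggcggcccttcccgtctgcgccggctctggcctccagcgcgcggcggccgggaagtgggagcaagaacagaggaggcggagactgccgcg
Il4ra: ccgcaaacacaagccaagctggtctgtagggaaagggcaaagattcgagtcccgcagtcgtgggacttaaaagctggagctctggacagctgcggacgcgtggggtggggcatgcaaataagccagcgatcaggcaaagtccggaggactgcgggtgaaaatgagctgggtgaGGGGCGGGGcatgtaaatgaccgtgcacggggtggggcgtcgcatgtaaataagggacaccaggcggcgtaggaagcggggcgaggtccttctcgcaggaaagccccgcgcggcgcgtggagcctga
Il6: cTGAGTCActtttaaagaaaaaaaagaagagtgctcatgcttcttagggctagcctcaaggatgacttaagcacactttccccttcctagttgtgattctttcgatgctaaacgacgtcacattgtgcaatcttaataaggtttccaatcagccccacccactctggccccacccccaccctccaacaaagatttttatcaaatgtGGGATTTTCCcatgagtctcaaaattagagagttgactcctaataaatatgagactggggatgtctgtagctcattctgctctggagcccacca

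The GC box begins at base 246 of the Il6st window and base 174 of the Il4ra window. The Il6 window holds an AP-1 motif from base 2 and an NF-kB motif from base 207, and the Il13ra1 window holds none of the motifs searched. Of the 54 members, 41 matched the promoter table, with 52 windows. The GC box was in 5 of the 52 (9.62%; 11.4% of all 32851 windows), AP-1 in 8 (15.4%; 7.81% of all), the STAT motif TTCNNNGAA in 7 (13.5%; 8.30% of all) and NF-kB in 2, Il6 and Il16 (3.85%; 0.411% of all). The palindromic estrogen response element was in 0 of the 52 and in 0.0700% of all windows. These are matches of letters in short windows.

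Endothelial cells fell into 5 clusters, formed without the family's genes, and Il6st, Il1r1, Il13ra1 and Il4ra were highest in a single cluster. Cluster 6, led by the venular genes Ackr1, Selp and Sele, made up 14.5, 7.32 and 12% of endothelial barcodes in WT replicates 1 to 3 and 41.7, 30.0 and 28.6% in Aromhum replicates 1 to 3. In it Il6st was at 1093 ± 50.1 CPM in WT mice, against 99.0 ± 3.52 to 178 ± 13.6 CPM in the other 4 clusters. Il1r1 was at 344 ± 37.7 CPM in cluster 6 and at most at 41.4 ± 17.4 CPM in another cluster, and Il13ra1 at 107 ± 4.51 CPM and at most 31.8 ± 3.63 CPM. Il6 was at 700.2 ± 66.5 CPM in cluster 6, against at most 116 ± 24.7 CPM.

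Within cluster 6 the genotypes did not differ by the test in any of these receptors, in fits added after the data were seen. Il6st was at 1149.8, 1073 and 1056 CPM in WT and 1037, 1287 and 1051 CPM in Aromhum mice, with full overlap. The log2 differences were -0.09 (adjusted p = 0.758) for Il6st, -0.13 (adjusted p = 0.655) for Il1r1, -0.02 (adjusted p = 0.951) for Il13ra1 and -0.21 (adjusted p = 0.392) for Il4ra. Il6 was at 654, 670.2 and 776 CPM in WT and 606, 277 and 580.0 CPM in Aromhum mice there, lower without overlap (log2 fold change -0.64 ± 0.25 SE, adjusted p = 0.216; unadjusted p = 0.0277). Of 20 members tested in cluster 6 none was called by edgeR (1.05% of all genes were; 2 members at an unadjusted p under 0.05). In cluster 1, led by Cldn5, Sox17 and Gpihbp1, 2 of 22 members were called (1.95% of all genes). There Il6 was at 66.1, 57.7 and 65.4 CPM in WT and 268, 158 and 127 CPM in Aromhum mice, a rise without overlap (log2 fold change 1.44 ± 0.21 SE, adjusted p = 0.00414). Il4ra rose there from 108 ± 4.69 to 169 ± 18.4 CPM (log2 fold change 0.55 ± 0.12 SE, adjusted p = 0.03). Il13ra1 (0.90, adjusted p = 0.078), Il1r1 (0.76, adjusted p = 0.0767) and Il6st did not pass there. Il6st was at 119, 101 and 123.1 CPM in WT and 133, 213 and 166 CPM in Aromhum mice in cluster 1, without overlap (log2 fold change 0.49 ± 0.15 SE, adjusted p = 0.143; unadjusted p = 0.00733). In cluster 14, led by Cytl1, Gkn3 and Klk10, Il13ra1 was at 34.2, 33.6 and 27.6 CPM in WT and 66.2, 65.0 and 50.02 CPM in Aromhum mice, also without overlap (log2 fold change 0.85 ± 0.17 SE, adjusted p = 0.0942; unadjusted p = 0.000383).

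Il16 passed the filter on low counts in clusters 1 and 3. In cluster 1 it was at 4.88, 5.40 and 3.53 CPM in WT and 2.19, 3.00 and 2.48 CPM in Aromhum mice, lower without overlap (log2 fold change -0.90 ± 0.35 SE, adjusted p = 0.244; unadjusted p = 0.0230). Its level was higher in cluster 3, led by Timp4, Rbp7 and Tcf15, at 23.0, 20.4 and 20.1 CPM in WT and 20.4, 4.14 and 14.6 CPM in Aromhum mice (log2 fold change -0.64 ± 0.30 SE, adjusted p = 0.738; unadjusted p = 0.0485), where Aromhum replicate 1 lay within the WT range. Cluster 3 made up 24.3, 37.4 and 29.1% of endothelial barcodes in WT and 11.0, 12.9 and 17.1% in Aromhum mice. Il10rb and Il17rd were also highest there. Il17rd was at 22.8 ± 1.99 CPM in WT and 18.4 ± 5.70 CPM in Aromhum mice, and Il10rb at 104 ± 13.7 CPM and 114 ± 19.9 CPM. No member was called by edgeR in cluster 3 (0.193% of all genes), cluster 12 (0.627%) or cluster 14 (0.0488%), where 4, 2 and 3 members had an unadjusted p under 0.05. DESeq2 was not run within clusters. The part of the cluster shares in the endothelial differences was not tested beyond these fits.

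**Figure D3:**
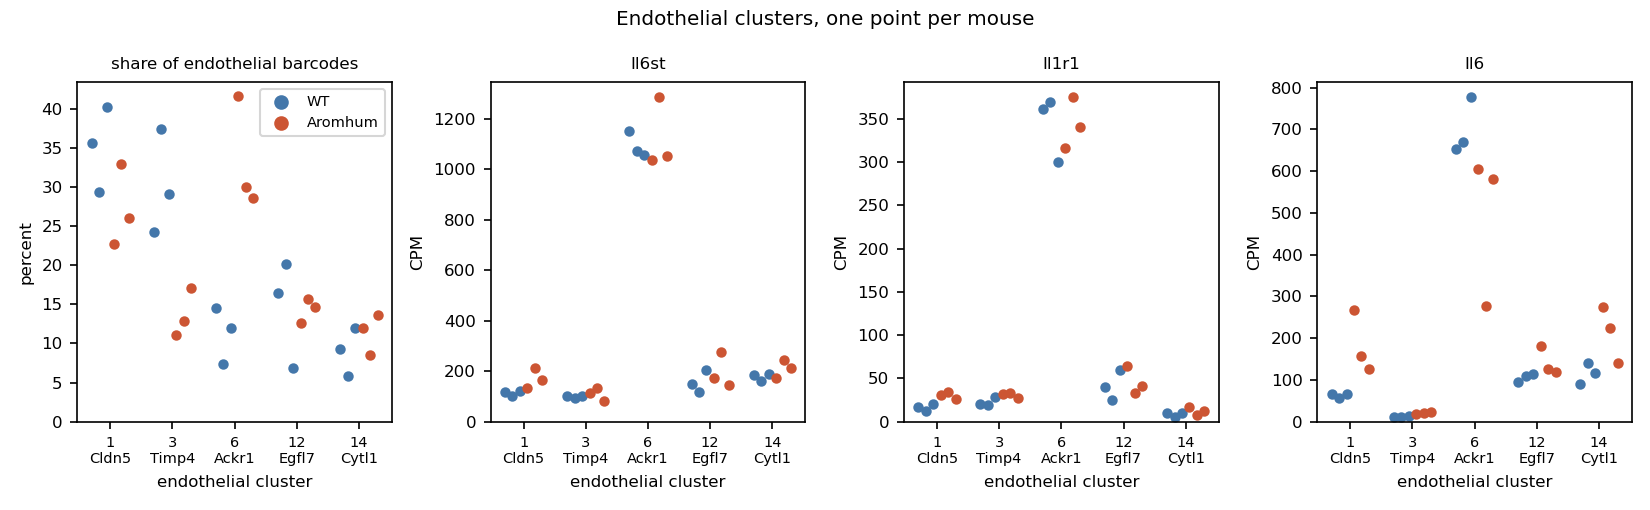
Share of endothelial barcodes (percent) and CPM of Il6st, Il1r1 and Il6 in the 5 endothelial clusters, a point for each of 3 WT (blue) and 3 Aromhum mice (red). Cluster 6 (Ackr1) has the larger share in all 3 Aromhum mice and the highest Il6st and Il1r1 in both genotypes, with overlapping levels.

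Smooth muscle cells also had higher gp130 and IL-1 receptor chains in Aromhum mice. This type takes in cluster 18, with 1177 of its 3431 barcodes, led by the pericyte genes Kcnj8, Higd1b and Abcc9. Of 21 members tested, Il1r1 and Il6st were called, both higher, where 1.79% of all genes were called. The median log2 fold change was 0.20 over the members and -0.02 over all genes. Il6st was at 126, 93.5 and 91.0 CPM in WT and 312, 505 and 165 CPM in Aromhum mice, 2.98-fold higher without overlap (log2 fold change 1.58 ± 0.32 SE, adjusted p = 0.0362). Il1r1 was at 149, 119 and 101 CPM in WT and 281, 324 and 179 CPM in Aromhum mice, 2.02-fold higher (log2 fold change 1.02 ± 0.21 SE, adjusted p = 0.0424). Aromhum replicate 3 was the lowest Aromhum mouse for both. Without it both calls stayed, among 10 of 24 members and 1115 of all 9759 genes, and without any other mouse both were lost (adjusted p from 0.0676 to 0.185). Both calls were also lost with at most 5% mitochondrial UMIs, within the study's limits and at the coarser clustering.

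Il17ra was at 37.7, 23.4 and 12.7 CPM in WT and 117, 115 and 37.8 CPM in Aromhum mice (adjusted p = 0.0558), and Il10rb at 12.7 ± 2.78 and 28.2 ± 7.82 CPM (adjusted p = 0.0589). Il6 overlapped between the genotypes, at 575, 658 and 499 CPM and 847, 453 and 608 CPM. Within the Myh11-led cluster 17, Il6st rose from 54.6 ± 8.02 to 119 ± 33.9 CPM (log2 fold change 1.02 ± 0.21 SE, adjusted p = 0.0399) and Il1r1 from 49.4 ± 3.25 to 107 ± 21.7 CPM (log2 fold change 1.02 ± 0.18 SE, adjusted p = 0.0241). These were 2 of 11 members tested there, where 0.949% of all genes were called. In clusters 18 and 20 no member was called by edgeR (0.157% and 0% of all genes; 2 and 6 members at an unadjusted p under 0.05), with log2 differences in Il6st of 0.89 (adjusted p = 0.164) and 1.01 (adjusted p = 0.153), and in Il1r1 of 0.82 (adjusted p = 0.423) and 0.21 (adjusted p = 0.746). Il6 in cluster 20 was at 1184, 2108 and 1268 CPM in WT and 1041, 495 and 996 CPM in Aromhum mice, lower without overlap (log2 fold change -0.98 ± 0.33 SE, adjusted p = 0.215; unadjusted p = 0.0119). Il6, Il1r1 and Il6st were all highest in cluster 20, Il6st at 221 ± 31.8 CPM in WT mice against 54.6 ± 8.02 CPM in cluster 17 and 74.5 ± 4.94 CPM in cluster 18. The share of cluster 20 was 30.4, 16.9 and 20.9% in WT and 48.6, 45.6 and 27.8% in Aromhum mice. The summed level of 10 fibroblast-like markers in smooth muscle was 4151 to 6784 CPM in WT and 6893 to 9566 CPM in Aromhum mice, and that of 12 macrophage/monocyte markers 21.0 to 45.1 and 31.1 to 113 CPM, none of them at 0. The 8 mesothelial markers summed to 7.88 to 16.4 and 17.8 to 43.6 CPM there. The part of the cluster shares and of these markers in the differences was not tested beyond these fits.

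In fibroblast-like cells 4 of 39 members tested were called, against 13.7% of all 13937 genes. Il1b, Il11 and Il16 were higher in Aromhum mice (7.34% of all genes were) and Il15 was lower (6.33% were). The median log2 fold change was -0.04 over the members and -0.0026 over all genes. Il11 was at 29.2, 24.2 and 16.8 CPM in WT and 94.1, 62.9 and 37.9 CPM in Aromhum mice, 2.77-fold higher without overlap (log2 fold change 1.47 ± 0.37 SE, adjusted p = 0.0445). Il16 was at 2.71, 3.60 and 4.70 CPM in WT and 6.45, 6.83 and 6.67 CPM in Aromhum mice, 1.83-fold higher without overlap (log2 fold change 0.87 ± 0.19 SE, adjusted p = 0.0317). Il15, which sustains NK and memory T cells, was at 3.87, 7.82 and 6.71 CPM in WT and 2.02, 1.68 and 3.35 CPM in Aromhum mice, 2.63-fold lower (log2 fold change -1.39 ± 0.31 SE, adjusted p = 0.0347).

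Il1b was at 0.199, 0.328 and 0.201 CPM in WT and 2.95, 1.72 and 0.4999 CPM in Aromhum mice, from 3 to 187 UMIs a mouse, and the groups did not overlap (log2 fold change 2.84 ± 0.74 SE, adjusted p = 0.0472). These levels are far below the macrophage/monocyte level of 449 ± 170.2 CPM in WT and 1765 ± 817 CPM in Aromhum mice. The 12 macrophage/monocyte markers, none at 0, summed to 16.5 to 18.8 CPM in WT and 24.5 to 49.3 CPM in Aromhum fibroblast-like cells, and to 23448 to 28674 and 27737 to 34196 CPM in macrophage/monocyte cells. The 8 dendritic markers summed to 20.7 to 23.1 CPM in WT and 34.1 to 45.5 CPM in Aromhum fibroblast-like cells, and the 8 T cell markers to 4.35 to 6.04 and 6.28 to 15.3 CPM, none at 0 and both without overlap. Dendritic cells, as given above, had a higher mean of Il1b than macrophage/monocyte cells, with overlap over the mice. The whole-library level of Il1b, given above, was likewise lowest in replicate 3 and highest in replicate 1 of the Aromhum mice. The part of these 3 lists and of free RNA in the Il1b difference was not tested. All 4 calls stayed without Aromhum replicate 3, when 19 of 43 members and 3996 of all 14032 genes were called, and were lost without any 1 of the other 5 mice (adjusted p from 0.0562 to 0.145). A gene can pass the filter on low counts through 1 genotype alone, and Il1b was low in WT mice. Without that filter the Il1b and Il11 calls were lost and Il16 and Il15 stayed, beside 1567 of all 16378 genes.

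The make-up of fibroblast-like cells differed between the genotypes. Their 5 named groups held 5164, 769, 4095, 2082 and 3756 of the 21440 barcodes. The rest lay in no named group and were kept in the fit without both HAF groups. Esr1-high HAFs made up 0.844, 0.367 and 0.498% of them in WT replicates 1 to 3 and 29.9, 26.3 and 17.6% in Aromhum replicates 1 to 3, and Mmp3-high HAFs 2.59, 0.138 and 0.356% and 14.7, 19.4 and 0.313%. Esr1-high HAFs, with 10 or more barcodes in WT replicate 1 and all Aromhum mice, had 9.63 CPM of Il6 in that WT mouse and 36.1, 37.9 and 9.00 CPM in the Aromhum mice. The Tppp3 and Smoc2 fibroblasts of cluster 0 held 304 ± 79.6 CPM of Il6, and Dmkn-high fibroblasts of cluster 16 344 ± 63.7 CPM. The numbers 0 and 16 are those of study clusters whose markers these groups resemble, and the other cluster numbers are of the clustering made here. The group called cluster 16 held 1086 WT and 3009 Aromhum barcodes. The study describes its own cluster 16 as small and about even between the genotypes, so the match is by markers alone. Il16 in Esr1-high HAFs was at 9.75, 11.5 and 10.7 CPM in Aromhum mice, and Il15 at 1.00, 0.536 and 0.762 CPM. Mmp3-high HAFs held Il1r1 at 266, 274 and 302 CPM, Il1r2 at 108, 104 and 134 CPM and Il11 at 150.2, 79.5 and 751 CPM in Aromhum replicates 1 to 3, the last of each from only 10 barcodes. Dmkn-high fibroblasts also held Il1r2, from 38.7 to 390.2 CPM over the WT mice. The HAF groups were too small in WT mice for a test.

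Without both HAF groups the 4 calls were lost, with log2 fold changes of 2.86 for Il1b (adjusted p = 0.0593), 0.96 for Il11 (0.120), 0.44 for Il16 (0.201) and -0.68 for Il15 (0.116), and only Il4ra was called, higher, beside 678 of all 13440 genes. The Il11, Il16 and Il15 calls were also lost with only barcodes inside the study's limits, with log2 fold changes of 0.43 for Il11, 0.07 for Il16 and -0.26 for Il15. In all fibroblast-like cells Il4ra was at 57.5, 55.3 and 46.3 CPM in WT and 85.3, 69.6 and 72.8 CPM in Aromhum mice, without overlap (log2 fold change 0.51, adjusted p = 0.0561). Within the groups large enough to test, edgeR called none of 30 members in cluster 0 (0.491% of all genes), none of 17 in a group of 769 barcodes led by Igfbp2, Scg5 and Nnat, with the tendon genes Fmod and Col11a1 among its leading genes (0.532%), and none of 27 in cluster 16 (0.32%). At an unadjusted p under 0.05 there were 7, 2 and 6 members, and DESeq2 called 2, 0 and 2, beside 154 of all 10554, 86 of all 8836 and 340 of all 10921 genes. The 1570 barcodes of the unnamed cluster led by Tnmd, Fmod and Wif1 lay outside the fibroblast-like cells and were not tested. In cluster 0, where same-numbered mice deviated together, the fit with the replicate block called 215 of all 11212 genes, among them Il4ra (log2 fold change 0.65, adjusted p = 0.0105) and Il6 (-0.66, adjusted p = 0.0453). There Il4ra was at 78.9, 69.1 and 59.6 CPM in WT and 122, 126 and 93.3 CPM in Aromhum mice, and Il6 at 340.2, 351 and 395 CPM and 305, 169.9 and 261 CPM, neither overlapping. Il11ra1, Il6st and Il6ra had log2 differences of 0.03 (adjusted p = 0.926), -0.02 (adjusted p = 0.928) and -0.25 (adjusted p = 0.239) in all fibroblast-like cells.

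Mesothelial cells, the lining of the body wall, had the largest fold change of any called receptor gene. Il4ra was at 16.2, 13.6 and 10.7 CPM in WT and 110.4, 85.6 and 52.5 CPM in Aromhum mice, from 10 to 1148 UMIs a mouse. The lowest Aromhum mouse was well above the highest WT mouse, and the rise was 6.33-fold (log2 fold change 2.66 ± 0.32 SE, adjusted p = 0.0309). It was 1 of 29 members called, against 0.222% of all genes. Its partner Il13ra1 was at 22.3 ± 9.25 CPM in WT and 46.8 ± 7.16 CPM in Aromhum mice (adjusted p = 0.0974), and Il18bp at 16.9 ± 3.93 and 37.2 ± 2.98 CPM (adjusted p = 0.0584). Il7 was at 39.1, 36.4 and 38.6 CPM in WT and 11.2, 8.94 and 22.5 CPM in Aromhum mice (adjusted p = 0.0817), without overlap. Il18 overlapped between the genotypes, at 195 ± 38.6 and 194 ± 14.8 CPM (log2 fold change 0.07 ± 0.16 SE). The Il4ra call stayed without Aromhum replicate 3, among 10 of 25 members and 1392 of all 10489 genes, and was lost without any 1 of the other 5 mice (adjusted p from 0.101 to 0.159). WT mice had 149, 173 and 68 mesothelial barcodes and Aromhum mice 662, 1010 and 676. The 10 fibroblast-like markers summed to 17012 to 19435 CPM in WT and 20188 to 21519.5 CPM in Aromhum mesothelial cells, and the 12 macrophage/monocyte markers to 51.8 to 189 and 74.5 to 335 CPM. The 8 MuSC/myoblast markers summed to 28.9 to 54.5 CPM in WT and 59.1 to 92.6 CPM in Aromhum mesothelial cells, without overlap. The part of these lists was not tested.

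In macrophage/monocyte cells edgeR called none of 22 members, against 0.0305% of all genes, while 6 had an unadjusted p under 0.05 and DESeq2 called Il1b and Il21r, beside 30 of all 6558 genes. Il1b was at 417, 298 and 633 CPM in WT and 2177, 2294 and 824 CPM in Aromhum mice, without overlap (log2 fold change 1.99, adjusted p = 0.247 by edgeR). Il21r was at 26.0, 15.1 and 22.0 CPM in WT and 97.1, 98.1 and 36.3 CPM in Aromhum mice (2.00, adjusted p = 0.221). Il10 was at 357, 240.4 and 384 CPM in WT and 1319.7, 1270.4 and 301 CPM in Aromhum mice, where Aromhum replicate 3 lay within the WT range (1.59, adjusted p = 0.42). Il1rn was at 385 ± 34.2 and 663 ± 191 CPM (0.81, adjusted p = 0.433), and Il1a overlapped at 237 ± 147 and 282 ± 44.6 CPM. Aromhum replicate 3 was the lowest Aromhum mouse for Il1b, Il21r, Il10 and Il1rn. The 8 dendritic markers summed to 17.1 to 71.4 CPM in WT and 75.2 to 103 CPM in Aromhum macrophage/monocyte cells, and the 10 fibroblast-like markers to 313 to 393 and 530.0 to 793 CPM, none at 0 and both without overlap. The 8 mesothelial markers were also higher, at 2.45 to 3.86 and 10.6 to 20.7 CPM, and the 8 glial markers lower, at 72.3 to 105 and 24.2 to 62.2 CPM. The part of these 4 lists was not tested.

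**Figure D4:**
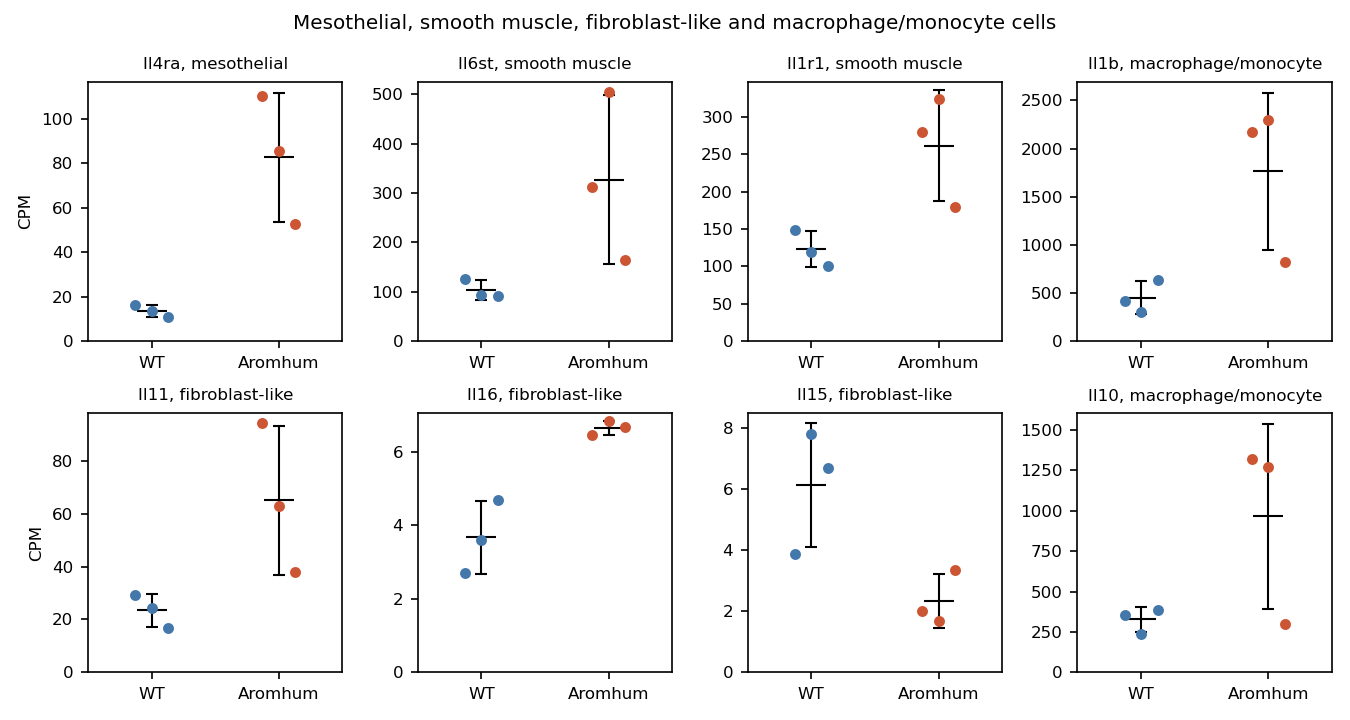
CPM of 8 gene and cell type pairs outside endothelial cells, a point for each of 3 WT (blue) and 3 Aromhum mice (red), with the mean and SD as bars. The groups do not overlap for Il4ra in mesothelial cells, Il6st and Il1r1 in smooth muscle, Il11, Il16 and Il15 in fibroblast-like cells and Il1b in macrophage/monocyte cells, and they overlap for Il10. Other than the macrophage/monocyte pairs, these were called by the test on the same mice, so their separation adds no support.

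No member was called by edgeR in the other 4 cell types tested. In lymphatic endothelial cells none of 15 was (0.0522% of all genes), with none at an unadjusted p under 0.05. In glial cells none of 20 was (0.521%; 6 unadjusted), where Il1r1 was at 14.4 ± 3.32 CPM in WT and 28.4 ± 5.08 CPM in Aromhum mice (adjusted p = 0.142) and Il13ra1 at 5.68 ± 0.963 and 13.7 ± 2.51 CPM (adjusted p = 0.108). In MuSC/myoblast cells none of 16 was (2.78%; 4 unadjusted), with Il4ra at 32.4 ± 6.05 and 57.9 ± 15.4 CPM (adjusted p = 0.0715). In myonuclei none of 12 was (0.358%; 1 unadjusted, Il6, at 29.8 ± 7.44 and 57.4 ± 12.7 CPM, adjusted p = 0.198). DESeq2 also called 0 members in each of these 4. The lymphatic level of Il7 was 132, 179 and 126 CPM in WT and 118, 157 and 149.6 CPM in Aromhum mice, overlapping. Dendritic, T, B, mast cells and neutrophils had fewer than 20 barcodes in some mice and were not tested. Over the 9 types there were 17 calls of 12 members.

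A direct test of the genotype effect in fibroblast-like against endothelial cells called 6 of 38 members, against 10.9% of all genes. Il16 had opposite signs, being higher in Aromhum fibroblast-like cells and lower in Aromhum endothelial cells, with a difference of 2.48 ± 0.30 (adjusted p = 0.00379) on the log2 scale (± SE). Il6st, higher in Aromhum mice in endothelial cells, had a difference of -1.07 ± 0.18 (adjusted p = 0.00989). Both were kept without any of the 6 mice, and both were lost with only barcodes inside the study's limits (1.15 and -1.03, adjusted p = 0.358 and 0.0752), where Il6 alone was called of 28 members and 143 of all 11384 genes were. The other 4 were Il6 at -1.15 ± 0.27 (adjusted p = 0.0283), Il15 at -1.11 ± 0.24 (adjusted p = 0.0208), Il1r1 at -0.97 ± 0.23 (adjusted p = 0.0297) and Il6ra at -0.73 ± 0.19 (adjusted p = 0.0403), each below 0. Without Aromhum replicate 3, Il6, Il15 and Il1r1 were kept and Il6ra was lost (adjusted p = 0.0604). Il1r1 was lost without any 1 WT mouse or Aromhum replicate 1, Il6 without WT replicate 2 or 3 or Aromhum replicate 1, Il15 without WT replicate 2 or 3 or Aromhum replicate 1 or 2, and Il6ra without any mouse but WT replicate 3. Over these losses the adjusted p ranged from 0.0604 to 0.148. Il4ra had a difference of -0.07 ± 0.16 (adjusted p = 0.811), with higher means in Aromhum mice in both cell types. Il11 did not pass either (1.43 ± 0.49, adjusted p = 0.0955).

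Beyond the family, genes that carry and curb interleukin signals inside the cell were read from a fixed list. Of 40 receptor-proximal genes (JAK kinases, STAT factors and their inhibitors and phosphatases, and the MyD88, IRAK, TRAF6, TAK1 and NF-kB proteins of the IL-1 and IL-17 receptor pathways), 2 of 39 tested were higher and 5 lower in fibroblast-like cells, and 5 of 37 were higher and 1 lower in endothelial cells (over all genes 7.34% and 6.33%, and 8.29% and 6.04%). The 7 fibroblast-like calls became 1 without WT replicate 1, 0 without WT replicate 2 or 3, without Aromhum replicate 1 or 2 and within the study's limits, and 11 without Aromhum replicate 3. The 6 endothelial calls became 2 without WT replicate 2 or 3 or Aromhum replicate 1 or 2, and 4 without Aromhum replicate 3 or within the limits. In fibroblast-like cells Socs3, an inhibitor of gp130 signaling, fell from 618 to 231 CPM (log2 fold change -1.46 ± 0.35 SE, adjusted p = 0.0407). Cish (-1.61), Stat2 (-1.27), Myd88 (-0.88) and Socs1 (-0.59) also fell, and Socs2 (1.26) and Ptpn11 (0.54) rose, as log2 fold changes. In endothelial cells Nfkb1 rose from 173 to 271 CPM (log2 fold change 0.65 ± 0.12 SE, adjusted p = 0.00883), with Irak3 (0.71), Nfkbiz (0.58), Jak2 (0.46) and Tollip (0.39), and Socs1 fell from 119 to 69.6 CPM (log2 fold change -0.77 ± 0.12 SE, adjusted p = 0.00608). Without both HAF groups 3 genes of the list were called in fibroblast-like cells. In MuSC/myoblast cells Socs1 fell from 149.6 to 41.6 CPM (log2 fold change -1.91 ± 0.24 SE, adjusted p = 0.0248) and Cish fell too, where 2.78% of all genes were called, and in cluster 16 Socs1 fell. In the same MuSC/myoblast sums the 10 endothelial markers summed to 830.2 to 1174 CPM in WT and 188 to 604 CPM in Aromhum mice, the 10 fibroblast-like markers to 1160 to 1572 and 2033 to 4943 CPM and the 9 smooth muscle markers to 563 to 668 and 1030 to 1429 CPM. None of these markers was at 0 and none of the sums overlapped, and their part was not tested. The MuSC/myoblast calls became 1 without WT replicate 1, 0 without WT replicate 2 or 3 or Aromhum replicate 1 or 2, and 5 without Aromhum replicate 3, and the cluster 16 call was lost without any of those 5 mice. No gene of the list was called in the other 8 fits. The median log2 fold change of the list was -0.02 in fibroblast-like and 0.03 in endothelial cells, against -0.0026 and -0.0070 over all genes.

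A list of 22 measured genes held other ligands and receptors that share chains with interleukins, together with Tnf, Tgfb1 and inflammasome genes, which do not. Of them 7 of 15 tested were higher and 2 lower in endothelial cells (8.29% and 6.04% of all genes), and 4 of 19 were higher and 2 lower in fibroblast-like cells (7.34% and 6.33%). The 6 fibroblast-like calls became 0 without any 1 of the 5 mice other than Aromhum replicate 3 and within the study's limits, 3 without both HAF groups, and 11 with DESeq2 and without Aromhum replicate 3. The 9 endothelial calls became 8 without Aromhum replicate 3, 5 without WT replicate 1 and within the limits, 4 without WT replicate 2 or 3 and 3 without Aromhum replicate 1 or 2. Among the endothelial genes that rose were Csf2rb, the β chain common to the IL-3, IL-5 and GM-CSF receptors, its near-identical copy Csf2rb2, a β chain of the IL-3 receptor whose counts may be shared with it, the gp130 ligands Lif and Clcf1, and the receptor chains Lifr and Osmr. Csf2rb rose from 114 to 292 CPM (log2 fold change 1.35 ± 0.24 SE, adjusted p = 0.00897) and Osmr from 181 to 242 CPM (log2 fold change 0.42 ± 0.12 SE, adjusted p = 0.0435). Tnf fell in both, in endothelial cells from 72.3 to 31.2 CPM (log2 fold change -1.20 ± 0.12 SE, adjusted p = 0.00219), as did the inflammasome adaptor Pycard in endothelial and the caspase Casp4 in fibroblast-like cells. In fibroblast-like cells Tgfb1, Csf2rb, Crlf2 and Csf2rb2 rose. The median log2 fold change of this list was 0.42 in endothelial and 0.32 in fibroblast-like cells. No gene of it was called in the other 10 fits.

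The 12 genes of the dissociation response, immediate early and heat shock genes that digestion of tissue can induce, were read beside these results. Of the 12, 5 were lower in fibroblast-like, 8 in endothelial and 5 in MuSC/myoblast cells, 1 in smooth muscle, and none higher. Over all genes 6.33% were lower in fibroblast-like and 6.04% in endothelial cells, and 2.78% were called in either direction in MuSC/myoblast and 1.79% in smooth muscle cells. The fibroblast-like and smooth muscle calls became 0 without any 1 of the 5 mice other than Aromhum replicate 3 and within the study's limits, and 7 in each without Aromhum replicate 3. The MuSC/myoblast calls became 12 without Aromhum replicate 3, 2 without WT replicate 1, 1 within the limits, and 0 without any 1 of the other 4 mice or without doublets. The endothelial calls ranged from 6 to 9 with each mouse left out. Their summed level was 13534 to 15804 CPM in WT and 7438 to 10382 CPM in Aromhum fibroblast-like cells, 17899 to 19510.0 and 11119.6 to 13059 CPM in endothelial cells and 17213 to 19830.4 and 9393 to 14676 CPM in smooth muscle. Each Aromhum mouse was below every WT mouse in these 3 cell types. The part of the dissociation response in the interleukin differences was not tested.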

How the data were processed

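The authors aligned the reads with Cell Ranger 3.0.2 to mm10 with human CYP19A1 added, and deposited 1 table of raw UMI counts, genes by barcodes, for all 6 mice. Its columns carry the sample in the barcode name. The family was matched by gene name. The members and the gene lists were chosen with earlier results of these data known.

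Every deposited barcode was used, with no filter. Barcodes were clustered in scanpy 1.11.5 (Python 3.11.15) from 2000 variable genes without the family, 30 principal components, 20 neighbors and Leiden resolution 0.8. They were named from fixed markers, other than the immune subclusters that kept the name of their parent cluster. The UMIs of each cell type were added up within a mouse and tested in edgeR 4.0.16 (R 4.3.3) by the quasi-likelihood test, with TMM factors and filterByExpr, in types with at least 20 barcodes in every mouse. Benjamini-Hochberg adjustment ran over all genes tested, with a threshold of 0.05. The main test had no term for the replicate number. CPM values are plain, from the summed UMIs, and 3′ UMIs were not divided by gene length. The edgeR steps were tested on simulated data, where the share of false calls lay above the threshold in fibroblast-like, endothelial and smooth muscle cells, myonuclei, cluster 16 and the Igfbp2-led group, and most of the smaller changes were missed in macrophage/monocyte, mesothelial cells, myonuclei and that group.

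Alternatives were DESeq2 1.42.0, RLE factors, no filter, leaving out each mouse, a block for the replicate number, the study's limits (200 to 2500 genes, at least 1000 UMIs, at most 5% mitochondrial UMIs; 18852 barcodes), mitochondrial UMIs alone, other resolutions and doublets left out. The automatic threshold of Scrublet marked no barcode in 2 WT libraries, so the highest scores were left out instead, at 0.8% per 1000 barcodes. That change, the fits within endothelial and smooth muscle clusters, and the alternatives of the fibroblast groups were chosen after seeing the data. Same-numbered mice correlated in their deviations from the group means above 0.1 in every pair in endothelial (0.155 to 0.320), macrophage/monocyte (0.141 to 0.369), myonuclei (0.119 to 0.248) and cluster 0 sums (0.124 to 0.223). This limit decided only where same-numbered mice are said to deviate together. The block was fitted as an alternative in every cell type and fibroblast-like group tested. The labels do not tie the numbers to a date.

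Members given with values were those called in any cell type, the 3 highest in each type, and a fixed list of 30 genes. Members named beyond these were chosen after their values were seen. Genes tested passed the filter in either genotype. The total of 64958237 to 111826460 UMIs a library limits low genes, and no interval was set for them. One called gene of a pathway list is not reported here by name.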

Additional observations from a re-analysis of the deposited data

Results flagged for a closer look

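For 6 of 38 members tested the difference between Aromhum and WT mice was itself different in fibroblast-like and endothelial cells, by the edgeR interaction test. Over all genes 1520 of 13968 (10.9%) were called in the same test. The difference of the log2 fold changes, fibroblast-like minus endothelial, was 2.48 for Il16, whose groups did not overlap in either cell type and which was higher in Aromhum mice in the one and lower in the other. It was -1.07 for Il6st, -0.97 for Il1r1, -1.15 for Il6, -1.11 for Il15 and -0.73 for Il6ra. Only the Il16 and Il6st calls were kept whichever mouse was left out. Within the study's limits only Il6 was called. The shares of clusters within both cell types differed between the genotypes, and their part in these differences was not tested.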

How the results depend on the processing

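Of 314 values of the 23 calls under other settings, outside the fits within clusters, 209 stayed calls, 104 were lost and 1 reversed, the Il15 difference between cell types (0.27 within the study's limits). Each count below stands before the number of all genes called in the same fit, in parentheses. The number of members called in fibroblast-like cells was 10 with DESeq2 (2877), 2 without the filter on low counts (1567), 8 with the replicate block (1632), 0 within the study's limits (1) and 1 without both HAF groups (678), against 4 (1905) as reported. In endothelial cells it was 6 within the limits (788), against 10 (1732). In smooth muscle it was 6 without the filter (504), 6 with the block (702), and 0 within the limits (0), with at most 5% mitochondrial UMIs (1) and at Leiden resolution 0.4 (63), against 2 (169). In mesothelial cells it was 6 with DESeq2 (632), 5 with the block (433), and 2 without the filter (129), with at most 5% mitochondrial UMIs (55) and without doublets (211), against 1 (26). In macrophage/monocyte cells it was 2 with DESeq2 (30) and 4 without the filter (188), against 0 (2). In glial cells it was 1 with the block (166), against 0 (50), in MuSC/myoblast cells 1 without the filter (528), with the block (587) and with at most 5% mitochondrial UMIs (194), against 0 (241), and in myonuclei 1 without the filter (184), against 0 (27). In cluster 0 it was 2 with DESeq2 (154) and 2 with the block (215), against 0 (55), and in cluster 16 it was 2 with DESeq2 (340) and 2 with the block (156), against 0 (35). The interaction had 1 call within the limits (143), against 6 (1520). Outside the 4 comparisons in which same-numbered mice deviated together, their correlations ranged from -0.18 to 0.25. A pairing is a property of the mice, so it cannot hold in some cell types and not in others. Whether same-numbered mice are littermates is not settled by these correlations. In MuSC/myoblast cells the same-numbered correlations (0.065 to 0.218) lay above all others (at most 0.030).

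With each mouse left out, the counts ranged from 0 to 19 in fibroblast-like (all genes, 6 to 3996), 4 to 11 in endothelial (459 to 1687), 0 to 10 in smooth muscle (4 to 1115), 0 to 10 in mesothelial (0 to 1392), 0 to 1 in glial (10 to 128) and 0 to 2 in MuSC/myoblast cells (0 to 1055), 0 to 8 in cluster 16 (0 to 1167) and 2 to 10 in the interaction (381 to 2149). They were 0 to 0 in lymphatic endothelial (0 to 28) and macrophage/monocyte cells (0 to 1), myonuclei (0 to 114), cluster 0 (14 to 61) and the Igfbp2-led fibroblast-like group (11 to 129). The highest count over all genes came without Aromhum replicate 3 in these fits, other than in lymphatic endothelial and macrophage/monocyte cells and the Igfbp2-led group. The sign reversed within endothelial cluster 6 for Il1r1 (-0.13), Il13ra1 (-0.020), Il4ra (-0.21), Il6st (-0.088) and Il10rb (0.087), and within cluster 3 for Il23a (0.15) and Il10rb (0.066). The study's limits could not be run in mesothelial cells, with 8 barcodes left in a mouse. Where no other value shows it, the cause was not tested. The smallest WT library held 63 macrophage/monocyte and 68 mesothelial barcodes, and whether this number sets their counts was not tested.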
